A study of Mus musculus with 16 samples.

Results

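The DNA replication and S phase genes described here are 43 genes, taken by name from the 24981 genes that each of the 2 deposited expression tables lists, and all 43 are present in both tables. The rule is a list of names drawn up by known role in copying DNA. It uses no measured value, but the list was chosen with earlier results of these data known. The series profiled RNA from the epidermis of newborn mice (postnatal day 0 to 2), from which basal and suprabasal cells had been separated on a Percoll density gradient. There were 16 libraries in 6 groups. Fvb/N mice, labelled wild type (WT) for Dlx3, gave 4 basal and 4 suprabasal libraries. A second set of mice, a mix of CD-1 and C57BL/6, gave 2 libraries each for WT basal, WT suprabasal, Dlx3 knockout (KO) basal and KO suprabasal cells. Dlx3 is a homeobox transcription factor of differentiating epidermis. The series text calls the Dlx3 mice transgenic, and the labels name neither the allele, nor a Cre driver, nor the number of animals behind a library. They do not say whether the numbered replicates came from separate animals either, so every p-value below measures only the spread between libraries, which may be technical.

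In the epidermis, cells divide in the basal layer and stop dividing as they move up into the suprabasal layers. Before S phase, the origin recognition complex with Cdc6 and Cdt1 loads the ring of Mcm2 to Mcm7 onto DNA. Cdc45 and the GINS complex (Gins1 to Gins4) then turn that ring into the active helicase. Polymerase alpha with primase starts each strand, the clamp Pcna is loaded by the Rfc complex and holds polymerases delta and epsilon on the template, Fen1 and Lig1 finish the lagging strand, and ribonucleotide reductase and thymidylate synthase supply the building blocks. Many of these genes are known targets of the E2F transcription factors, which the retinoblastoma family holds in check outside the cycle.

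Values are RPKM, read numbers divided by the length of the gene and the size of the library. The Fvb/N and the Dlx3 tables were each normalized on their own, and no level is set across them. A log2 change is the difference in log2(RPKM + 1) fitted with limma, with its standard error (SE) after the ± sign; at low RPKM it understates the change. A gene is called at a Benjamini-Hochberg adjusted p under 0.05 over all genes tested, which were the genes at 1 RPKM or more in at least 4 Fvb/N libraries (11608 genes) or at least 2 libraries of the Dlx3 table (12146 genes). Depth is not given in the tables. The smallest steps between length-adjusted low values put it at an estimated 45.9 to 61.9 M reads for the Fvb/N libraries and 34 to 42.3 M for the Dlx3 table. In bulk RNA, fewer cells of a type and less RNA per cell cannot be told apart.

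Dlx3 itself was at 11.2 and 11 RPKM in the WT basal libraries and 7.87 and 6.92 in the WT suprabasal libraries. In the KO it was at 2.35 and 2.16 RPKM in basal and 2.64 and 2.24 in suprabasal cells, below every WT library but not at 0. The summed level of 6 basal keratinocyte markers (Krt5, Krt14, Itga6, Itgb4, Col17a1, Trp63) was 13293 to 16049.9 RPKM in Fvb/N basal and 656 to 3610.5 in Fvb/N suprabasal libraries, and all 6 markers fell. The corresponding sums in the WT of the Dlx3 table were 14606 to 14957 and 7103 to 7159, so those suprabasal fractions kept a larger share of basal marker RNA. Suprabasal markers (Krt1, Krt10, Lor, Ivl, Flg2, Sbsn) summed to 33478 and 38393 RPKM in Fvb/N basal libraries 1 and 2 against 5133 and 6021 in basal libraries 3 and 4. Fvb/N suprabasal library 3 held 3610.5 RPKM of basal marker RNA, against 656 to 1273 in the other suprabasal libraries. Melanocyte markers summed to 86.6 to 154 RPKM in Fvb/N basal and 8.25 to 26.6 in suprabasal libraries, while endothelial markers were at 2 RPKM or less in all 16 libraries. The sources disagree on the runs of the Fvb/N libraries. The labels give libraries 1 and 2 of both fractions an earlier run code than libraries 3 and 4, whereas the sample sheets deposited with the tables give the earlier code to all 4 basal and the later code to all 4 suprabasal libraries. If the sheets are right, run and fraction cannot be told apart in Fvb/N, and the values within a run code below follow the labels. The Dlx3 libraries carry a single run code in the labels.

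Promoter windows were searched for E2F words because many of these genes are known E2F targets. The windows of 2 ring genes and of Tyms, the gene that departed most from the rest, are shown. RefSeq (GRCm38.p6) windows of 250 bases before to 50 bases after the start were matched by symbol for 33 of the 43 members. The E2F words TTTCCCGC, TTTCGCGC, TTTGCCGC and TTTGGCGC, searched on both strands with overlapping words counted as 1 match, were found for 12 of the 33 (36.4%): Orc1, Cdc6, Cdt1, Mcm3, Mcm5, Mcm6, Mcm7, Gins3, Pola1, Pold1, Rfc3 and Lig1. The same words were found for 704 of all 27025 genes with a window (2.61%), for 441 of 9078 genes tested in Fvb/N (4.86%) and for 1 of 14 genes of a mitosis list (7.14%). The motif called CHR (TTTGAA), known from genes of late cycle phases, was found for 5 of the 33 (15.2%), for 10 of the 14 mitosis genes (71.4%) and for 20.2% of all genes. The CCAAT box (CCAAT) was found for 21 of the 33 (63.6%), for 13 of the 14 mitosis genes (92.9%) and for 41.1% of all genes. The 250 bases before the start are given 5′ to 3′ on the gene's strand with E2F words in capitals, for Mcm5 (chr8:75109259-75109508, plus strand), Mcm6 (chr1:128359706-128359955, minus strand) and Tyms (chr5:30073626-30073875, minus strand).
Mcm5: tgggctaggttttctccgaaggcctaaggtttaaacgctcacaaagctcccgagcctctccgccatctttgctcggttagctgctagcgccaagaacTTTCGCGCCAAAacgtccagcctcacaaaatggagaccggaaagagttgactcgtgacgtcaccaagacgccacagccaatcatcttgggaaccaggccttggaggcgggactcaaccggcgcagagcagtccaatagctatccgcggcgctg
Mcm6: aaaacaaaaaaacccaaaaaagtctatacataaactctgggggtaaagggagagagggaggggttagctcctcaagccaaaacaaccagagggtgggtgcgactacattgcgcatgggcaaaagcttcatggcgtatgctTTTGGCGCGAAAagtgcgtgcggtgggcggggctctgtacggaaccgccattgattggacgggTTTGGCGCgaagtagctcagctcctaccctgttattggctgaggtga
Tyms: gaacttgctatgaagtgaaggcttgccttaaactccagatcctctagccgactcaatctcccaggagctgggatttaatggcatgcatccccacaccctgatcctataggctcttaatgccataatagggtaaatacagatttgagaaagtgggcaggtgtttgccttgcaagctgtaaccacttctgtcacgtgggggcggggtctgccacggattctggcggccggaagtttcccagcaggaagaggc
In Mcm5, a word on each strand overlapped at 153 to 142 bases before the start. Mcm6 held another such overlapping pair at 110 to 99 bases and a lone word at 47 to 40 bases. The Tyms window held none of these words. Tyms was 1 of 21 members with a window and no match. The others of these all fell in Fvb/N, as did the 12 with a match, against 60.6% of all genes tested. Whether a match goes with the size of a change was not tested. Mcm6 and Tyms were picked for display after their matches and values were seen. A match describes letters in the window and was not tested as a site.

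In Fvb/N epidermis nearly the whole replication machinery was lower in suprabasal than in basal cells. Of the 43 members, 42 fell and 0 rose (42 at an unadjusted p under 0.05 by limma), against a background of 60.6% of all genes tested that fell. Their median log2 change was -2.22, against -0.55 over all genes tested. For 42 members every suprabasal library was below every basal library, against 56.1% of all genes tested, and Tyms was the other member. RPKM are relative values, and rescaling each library by its median ratio moved the all-gene median from -0.55 to 0.02 and the split of all genes from 60.6% lower and 13.4% higher to 34% and 33.1%. The members' median stood 1.67 below the all-gene median before that rescaling and 1.65 below it after, and 41 members still fell. Within the earlier run code of the labels 43 members fell, with a median of -2.30, and within the later one 42 fell, with a median of -2.17. The share of all genes that fell within a run code is not given. All 43 members passed the filter on low values. Of them 30 reached 1 RPKM in all 8 libraries, and 8 in the 4 basal and some suprabasal libraries. The other 5 (Orc1, Cdc6, Gins3, Dscc1 and Exo1) reached it in the 4 basal libraries only, so they passed through the group in which they are high.

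**Figure D1:**
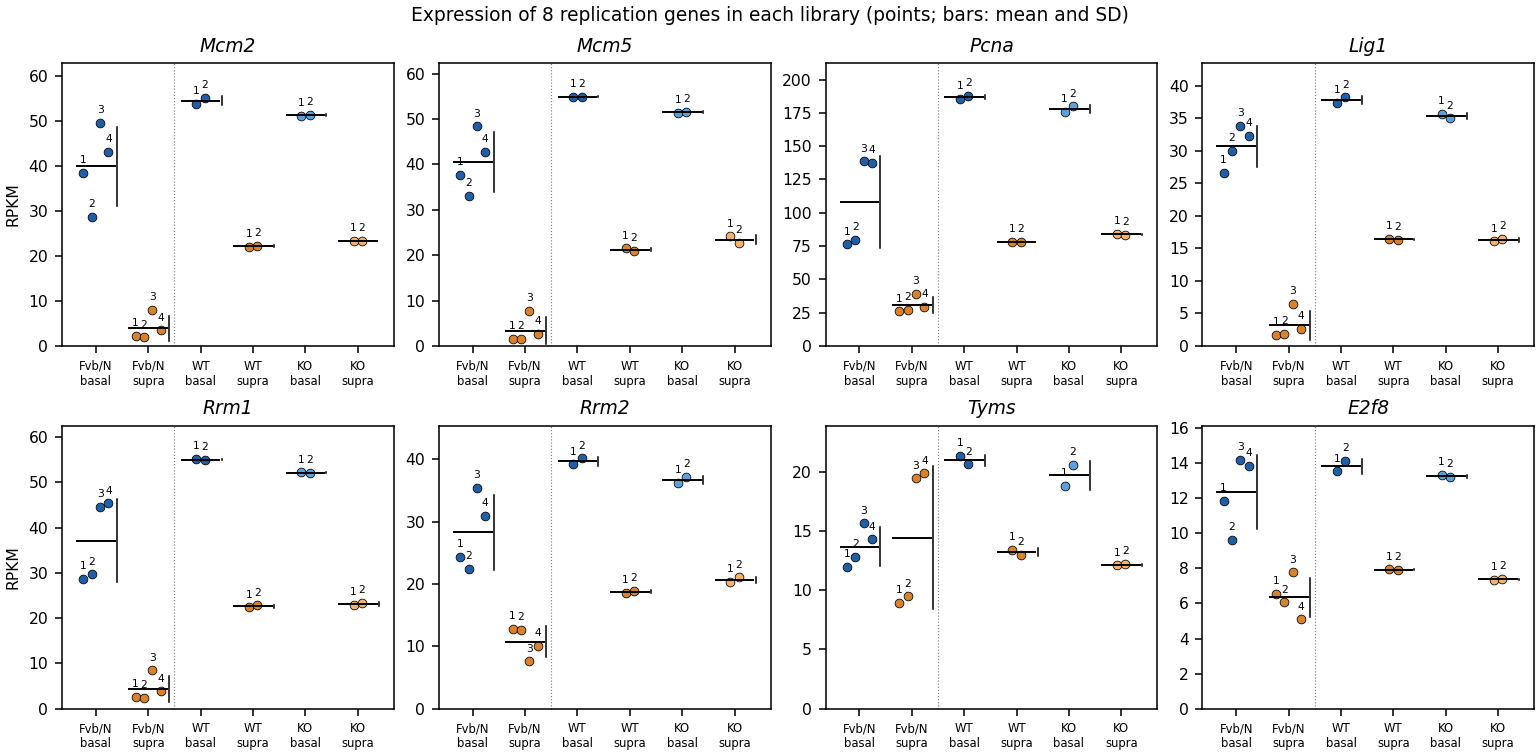
RPKM of 8 replication genes in each library (points), by group, with the group mean and SD. Suprabasal levels of Mcm2, Mcm5, Lig1 and Rrm1 lie far below basal levels in Fvb/N, while the Tyms points of both Fvb/N fractions overlap.

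Licensing factors, which prepare origins, fell in all 4 cases, with a median log2 change of -1.54. Cdt1, which brings the ring to the origin, stood at 23, 17.4, 28.7 and 26.1 RPKM in basal cells (libraries 1 to 4, the order kept below) and at 1.21, 0.713, 4.96 and 1.84 in suprabasal cells. The groups were far apart, with suprabasal library 3 the highest of its group, and the log2 change was -3.11 ± 0.35 (adjusted p = 9.77e-05). Orc6, the smallest origin recognition subunit, was at 7.67, 10.3, 11.5 and 13.1 RPKM in basal and 3.84, 3.9, 5.19 and 4.15 in suprabasal libraries. Its groups did not overlap, but basal library 1 lay close to the suprabasal range, and the change was -1.13 ± 0.17 (adjusted p = 0.000309). Orc1, the large ATP-binding subunit, averaged 4.09 ± 0.735 RPKM in basal and 0.404 ± 0.358 in suprabasal cells (SD, n = 4 each), with a change of -1.88 ± 0.18. Cdc6, which completes the loader, was the lowest member in basal cells at 2.33 ± 0.325 RPKM (SD, n = 4) and changed by -1.21 ± 0.11.

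The MCM ring had the lowest median log2 change of any role, at -3.23, and all 6 subunits, which assemble in equal number, fell. Mcm2 was at 38.4, 28.6, 49.5 and 43 RPKM in basal and 2.25, 1.91, 7.93 and 3.48 in suprabasal libraries (-3.19 ± 0.33, adjusted p = 8.16e-05). Mcm3 was at 30.7, 32.1, 44.2 and 39.8 RPKM in basal and 1.49, 1.55, 6.98 and 2.58 in suprabasal libraries (-3.35 ± 0.34, adjusted p = 7.82e-05). For both genes the suprabasal libraries lay far under the basal ones, with library 3 the highest of the 4. Mcm4 was at 28.4, 29.9, 38.1 and 37.6 RPKM in basal and 2.36, 2.61, 8.11 and 3.55 in suprabasal libraries (-2.85 ± 0.29, adjusted p = 7.81e-05), the smallest fall of the ring. Mcm5, whose promoter window is printed above, was at 37.8, 33.1, 48.3 and 42.8 RPKM in basal and 1.49, 1.57, 7.68 and 2.72 in suprabasal libraries. Its change of -3.44 ± 0.36 (adjusted p = 8.27e-05) was the lowest log2 change of the 43 members on the log2(RPKM + 1) scale. By the ratio of mean RPKM it stood next to Exo1, at 12 times in basal over suprabasal cells against 15.4 times for Exo1. Mcm6, the other printed ring gene, was at 24.8, 25.4, 39.9 and 39.4 RPKM in basal and 1.27, 1.13, 7.09 and 2.35 in suprabasal libraries (-3.27 ± 0.40, adjusted p = 0.000131). Mcm7 was at 34.6, 35.9, 58.3 and 55.8 RPKM in basal and 2.85, 2.52, 12.8 and 4.34 in suprabasal libraries (-3.03 ± 0.41, adjusted p = 0.000201). Again no suprabasal library reached a basal one, and basal libraries 3 and 4 were higher than 1 and 2. Within a library the highest ring subunit was 1.41 to 1.55 times the lowest in Fvb/N basal cells and 1.84 to 2.32 times in suprabasal cells, both per gene length.

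All 6 helicase activators fell, with a median log2 change of -2.10. Gins2 was at 12, 10.7, 20.2 and 17.9 RPKM in basal and 0.914, 1.04, 3.77 and 2.17 in suprabasal libraries, a change of -2.50 ± 0.31 (adjusted p = 0.000145). Gins4, a subunit of the same complex, was at 9.82, 12.2, 16.2 and 18.6 RPKM in basal and 4.66, 5.5, 6.81 and 6.59 in suprabasal libraries, a change of -1.11 ± 0.20 (adjusted p = 0.000889). The groups were apart for both genes, but by little for Gins4. The ratio of Gins4 to Gins2 was 0.80 to 1.14 in basal and 1.81 to 5.31 in suprabasal libraries. Of the rest, Gins1 changed by -2.31 ± 0.27, Gins3 by -1.21 ± 0.10, the helicase subunit Cdc45 by -2.27 ± 0.17 and the firing factor Mcm10 by -1.92 ± 0.18. Gins2 shares 67.3% of its exon bases with Gse1 on the opposite strand, and the strand setting of the counting is not given in the sources used here, so its level is uncertain.

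Polymerases and primase fell in 6 of 6 cases, with a median of -2.06. Prim1, the catalytic primase subunit, was at 15.5, 17.6, 25.2 and 27.5 RPKM in basal and 3.92, 4.36, 6.41 and 4.41 in suprabasal libraries (-1.94 ± 0.21, adjusted p = 8.34e-05). Pold1, the catalytic subunit of polymerase delta, was at 22.8, 19.6, 23.4 and 17.3 RPKM in basal and 1.21, 1.16, 3.92 and 1.42 in suprabasal libraries (-2.98 ± 0.26, adjusted p = 5.54e-05). Neither gene's groups overlapped, and Pold1 in suprabasal library 3 stood well above the 3 others. The leading-strand polymerase Pole, with the same pattern, averaged 12.8 ± 1.59 RPKM in basal and 1.07 ± 1.14 in suprabasal cells (SD, n = 4 each; -2.86 ± 0.30). Pola1, the polymerase alpha catalytic subunit, changed by -1.99 ± 0.22, its partner Pola2 by -2.14 ± 0.20 and the primase subunit Prim2 by -1.77 ± 0.27.

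The clamp, its loaders and the enzymes that join Okazaki fragments fell in 9 of 9 cases, with a median of -2.12. Pcna, the clamp, was the highest member in all groups by mean and was at 76.2, 79.8, 139 and 138 RPKM in basal and 26, 27.3, 39 and 29.5 in suprabasal libraries. Its groups did not overlap, basal libraries 3 and 4 were well above 1 and 2, and the change was -1.75 ± 0.24 (adjusted p = 0.000198). Relative to the mean of Mcm2 to Mcm7 in the same library, Pcna was at 2.35, 2.59, 2.99 and 3.19 in basal and at 13.3, 14.5, 4.63 and 9.29 in suprabasal libraries. Lig1, which seals the nicks, was at 26.6, 29.9, 33.8 and 32.3 RPKM in basal and 1.74, 1.8, 6.42 and 2.67 in suprabasal libraries, a change of -3.05 ± 0.29 (adjusted p = 6.39e-05) with no overlap. Fen1, the flap endonuclease, averaged 18.2 ± 1.68 RPKM in basal and 3.21 ± 1.37 in suprabasal cells (SD, n = 4 each; -2.23 ± 0.20), and 78.8% of its exon bases lie under an antisense gene, Gm10143, which makes that level uncertain. The Rfc subunits changed by -1.47 ± 0.19 (Rfc1), -2.24 ± 0.23 (Rfc2), -2.32 ± 0.31 (Rfc3), -1.78 ± 0.28 (Rfc4) and -2.12 ± 0.28 (Rfc5), of which Rfc2 and Rfc4 share 15.1% and 12.7% of their exon bases with Lat2 and Eif4a2 on the opposite strand. Dscc1, of the loader that acts in cohesion, was at 4.16 ± 1.16 RPKM in basal and 0.407 ± 0.404 in suprabasal cells (SD, n = 4 each; -1.89 ± 0.22). Processed pseudogenes of Pcna (Pcna-ps1, Pcna-ps2) are annotated, and how reads with more than 1 place were counted is not given.

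Nucleotide supply did not move as a unit. Rrm1, the large subunit of ribonucleotide reductase, was at 28.7, 29.7, 44.7 and 45.4 RPKM in basal and 2.53, 2.41, 8.43 and 3.83 in suprabasal libraries (-2.95 ± 0.32, adjusted p = 9.04e-05). Rrm2, the small subunit that is made in S phase, was at 24.3, 22.4, 35.4 and 31 RPKM in basal and 12.7, 12.6, 7.59 and 10.1 in suprabasal libraries (-1.32 ± 0.20, adjusted p = 0.00033). Both fell without overlap, but suprabasal library 3, the highest of its group for Rrm1, was the lowest for Rrm2. The Rrm2 to Rrm1 ratio was 0.847, 0.754, 0.794 and 0.682 in basal libraries and 5.03, 5.24, 0.900 and 2.64 in suprabasal libraries. Tyms, thymidylate synthase, was at 12, 12.8, 15.7 and 14.3 RPKM in basal and 8.94, 9.48, 19.5 and 19.9 in suprabasal libraries. Suprabasal libraries 1 and 2 were below every basal library and libraries 3 and 4 above every one. The log2 change was -0.01 ± 0.26 (adjusted p = 0.976), and rescaling by the median ratio turned it to 0.62 (adjusted p = 0.0452). Within the labels' earlier run code Tyms fell by 0.39 (adjusted p = 0.00316), and within the later one its change was 0.37 (adjusted p = 0.125). Without suprabasal libraries 3 and 4 it was -0.52 (adjusted p = 0.00734). A processed pseudogene, Tyms-ps, is annotated.

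**Figure D2:**
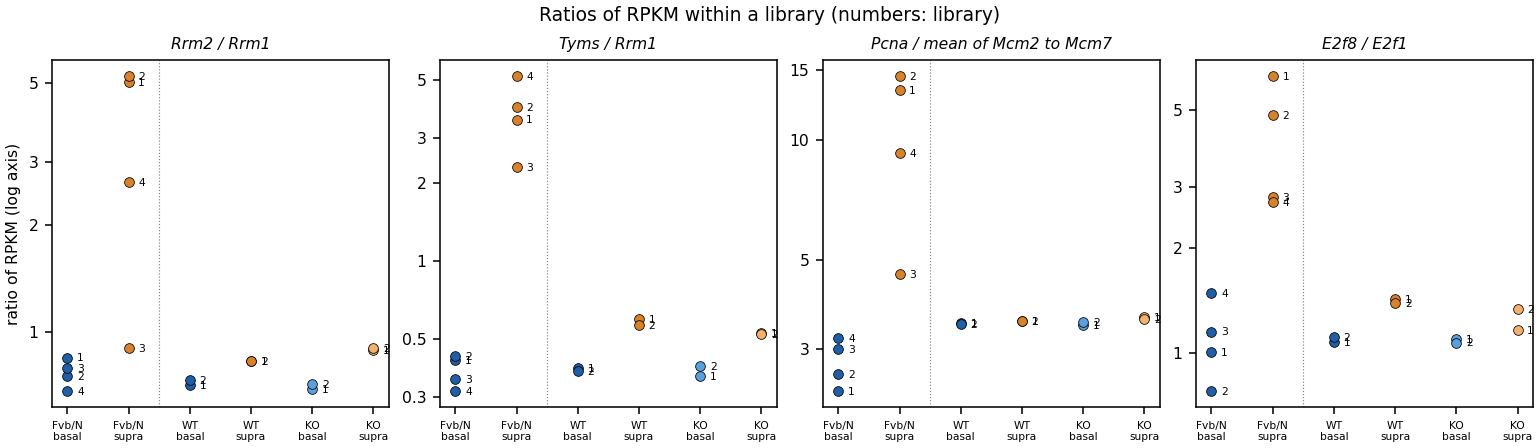
Ratios of RPKM within each library (points, log axis) for Rrm2 to Rrm1, Tyms to Rrm1, Pcna to the mean of Mcm2 to Mcm7, and E2f8 to E2f1. All 4 Fvb/N suprabasal libraries lie above the basal ones for each ratio, library 3 the nearest to them for all but E2f8 to E2f1, and the Dlx3 table spans a narrower range.

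The 3 genes of chromatin assembly and histone RNA fell, with a median of -2.79. Slbp, which binds histone mRNA, was at 19.7, 25.7, 30.0 and 29.5 RPKM in basal and 5.62, 6.43, 9.38 and 6.29 in suprabasal libraries (-1.78 ± 0.18, adjusted p = 7.53e-05). Chaf1a, the large subunit of chromatin assembly factor 1, was at 21.2, 21.3, 23.2 and 21.2 RPKM in basal and 1.71, 1.46, 4.68 and 2.03 in suprabasal libraries (-2.79 ± 0.24, adjusted p = 5.54e-05). Groups were apart for both, and Chaf1a shares 52.5% of its exon bases with Ubxn6 on the opposite strand. Its partner Chaf1b changed by -3.03 ± 0.30. Among genes of single-stranded DNA, the fork and repair, 4 of 4 fell, with a median of -2.34. Rpa2, of the single-strand binding complex, was at 14.4, 15.8, 22 and 22 RPKM in basal and 1.38, 1.43, 4.1 and 2.09 in suprabasal libraries (-2.64 ± 0.26, adjusted p = 6.71e-05). Tipin, of the fork protection complex, was at 9.77, 12.8, 19.7 and 21.4 RPKM in basal and 1.97, 1.94, 5.4 and 2.57 in suprabasal libraries (-2.11 ± 0.31, adjusted p = 0.000293). Neither overlapped between fractions, and suprabasal library 3 was the highest of its group for both. The exonuclease Exo1 changed by -1.93 ± 0.15 and the uracil glycosylase Ung by -2.57 ± 0.25.

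Both E2F factors fell, to different extents. E2f1, an activator of S phase genes, was at 11.8, 12.4, 12.3 and 9.32 RPKM in basal and 1.04, 1.25, 2.76 and 1.88 in suprabasal libraries, a change of -2.22 ± 0.20 (adjusted p = 5.84e-05). E2f8, an atypical E2F known to repress them, was at 11.9, 9.63, 14.2 and 13.8 RPKM in basal and 6.53, 6.06, 7.78 and 5.1 in suprabasal libraries, a change of -0.86 ± 0.16 (adjusted p = 0.00106). Its groups did not overlap, but after rescaling by the median ratio its change was -0.25 and not called (adjusted p = 0.0835). The ratio of E2f8 to E2f1 was 0.774 to 1.48 in basal and 2.71 to 6.29 in suprabasal libraries.

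The Fvb/N suprabasal libraries differed among themselves. Library 3 was the highest of the 4 for 41 members, and at a median of 2.48 times the mean of the others. Rrm2 was highest in library 1 and Tyms in library 4. As a share of the basal mean, the median member was at 9.06%, 8.37%, 24.8% and 14.3% in suprabasal libraries 1 to 4. Basal markers were at 2.14%, 2.02%, 24.5% and 5.44%, and 16 mitosis genes at 4.05%, 4.26%, 20.5% and 7.18%, so all 3 lists were highest in library 3 and next highest in library 4. Whether basal cells in the suprabasal fraction account for that was not tested. The median ratio of the basal to the suprabasal mean was 7.47 with all libraries and 10.1 without library 3. Without that library 42 members fell, in a fit whose share over all genes is not given. In the basal group, libraries 3 and 4 were at a median of 1.36 times libraries 1 and 2 over the members, against 1.12 over all genes tested. Of the members, 39 were above 1 and 4 below, and the share of all genes above 1 is not given. The lower pair was the one with the higher suprabasal marker RNA given above. All other marker sums were higher in libraries 3 and 4. Erythroid markers summed to 3.19, 3.32, 84.1 and 304 RPKM in basal libraries 1 to 4. Langerhans and myeloid markers summed to 133, 135, 361 and 233, and T cell markers to 0.932, 0.794, 10.2 and 5.85. The part of these cells in the members' values was not tested.

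**Figure D3:**
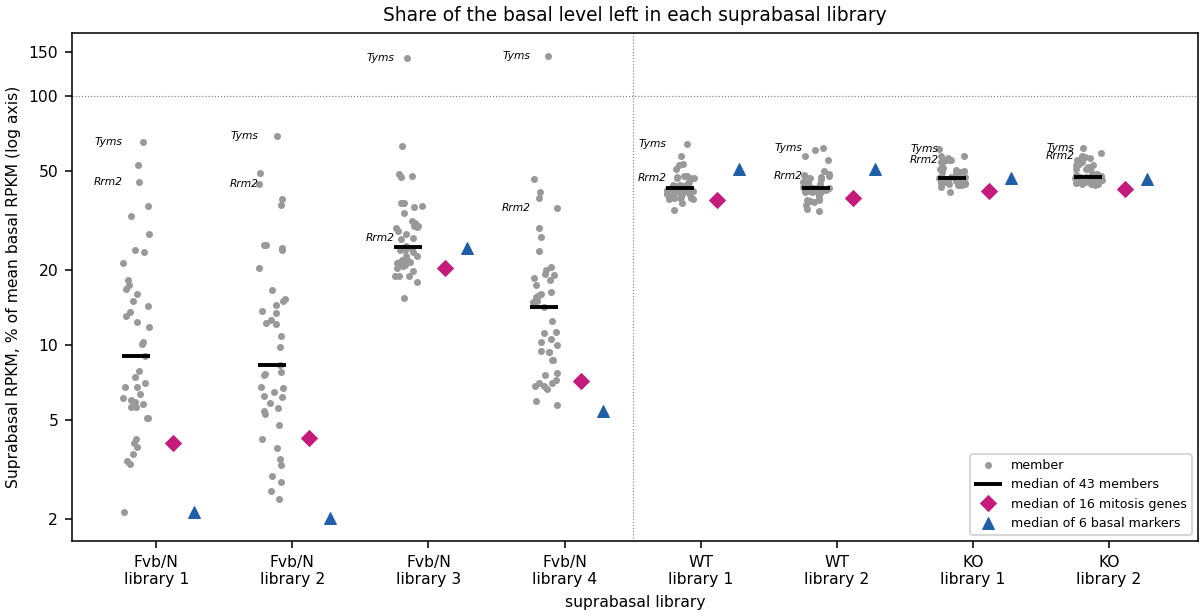
Percent of the basal mean left in each suprabasal library (log axis) for the members and, as medians, for the 43 members, 16 mitosis genes and 6 basal markers. In Fvb/N library 3 the medians lie between 20.5% and 24.8%, while in library 1 the basal markers are at 2.14% and the members at 9.06%.

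In the Dlx3 table, whose libraries share a run code, the replication genes were lower in suprabasal than in basal cells too, by smaller values; the difference between the tables was not tested. In WT all 43 members fell, against 70.4% of all genes tested, with a median log2 change of -1.14 against -0.40 over all genes. In KO all 43 fell as well, against 69.7%, with a median of -0.995 against -0.39. Rescaling by the median ratio moved the all-gene medians to 0.00 in both, with 39.2% lower and 40.3% higher in WT and 38.7% and 39.8% in KO. Quantile normalization gave 52.6% lower and 30.7% higher in WT and 53.6% and 29.4% in KO. All 43 members fell under both, and they stood 0.74 below the all-gene median in WT (0.69 after rescaling) and 0.60 below it in KO (0.55 after). All 43 were at 1 RPKM or more in all 8 libraries.

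The members ran closer together than in Fvb/N. In WT they ranged from -1.34 (Chaf1b) to -0.63 (Tyms), with an SD over members of 0.17, against 0.76 in Fvb/N. Mcm5 was at 54.8 and 54.9 RPKM in WT basal and 21.5 and 21 in WT suprabasal libraries (-1.33 ± 0.03, adjusted p = 4.05e-10). Pcna was at 186 and 188 RPKM in WT basal and 78.3 and 78.1 in WT suprabasal libraries (-1.25 ± 0.02, adjusted p = 7.3e-11). For both genes the suprabasal libraries lay well below the basal ones, and the libraries of a group were nearly level. Tyms, uncalled in Fvb/N, was at 21.3 and 20.7 RPKM in WT basal and 13.4 and 13 in WT suprabasal libraries (-0.63 ± 0.04, adjusted p = 4.21e-07). Its fractions were apart, though the fall was the smallest of the 43. In KO the members ranged from -1.14 (Rrm1) to -0.63 (Cdc6), with an SD of 0.15. As a share of the mean basal RPKM, Tyms kept the most in KO, at 61.7% against 53.6% for Cdc6. By role the WT medians were -0.99 for licensing, -1.23 for the ring, -1.11 for helicase activation, -0.94 for polymerases and primase, -1.16 for clamp and loaders, -1.04 for nucleotide supply, -1.15 for chromatin assembly, -1.22 for single strand and repair, and -0.89 for the E2F factors. Rrm2 to Rrm1 was 0.710 and 0.731 in WT basal and 0.830 and 0.828 in WT suprabasal libraries, where the Fvb/N ratio had reached 5.24. Across the 43 members the Fvb/N and WT changes had a Pearson r of 0.68 and a Spearman rho of 0.62 (0.60 and 0.60 without Tyms), a description over genes that share their libraries. The median member kept 42.7% and 42.8% of its basal mean in the 2 WT suprabasal libraries and basal markers 51.2% and 51.1%.

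**Figure D4:**
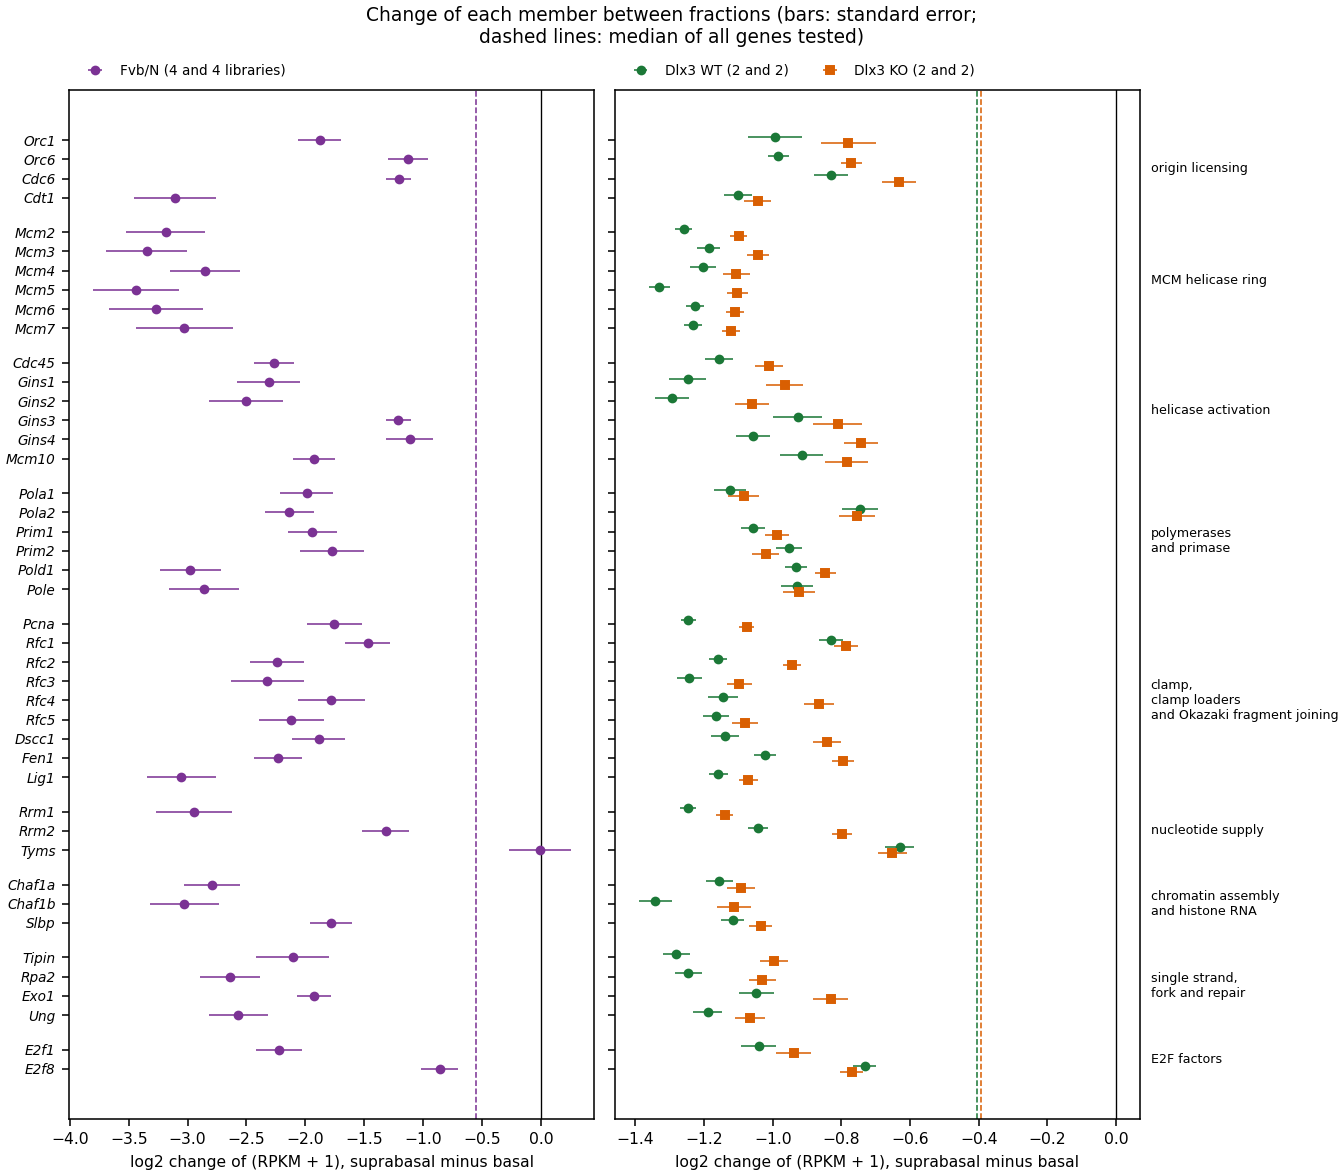
Suprabasal minus basal log2 change of each member (points, bars = SE), in Fvb/N and in WT and KO of the Dlx3 table, with the median of all genes tested as a dashed line. In Fvb/N the ring genes lie near -3 and Tyms at -0.01, while in the Dlx3 table all members lie between -1.34 and -0.63.

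In KO basal cells replication genes stood close to WT, with a median difference of -4.5% in RPKM + 1. Rfc2, a clamp loader subunit, was called lower and none higher, which is 1 of 43 members against 2.98% of all genes tested called lower. Rfc2 measured 40.4 and 41.7 RPKM in WT against 37.4 and 37.9 in KO basal libraries. Both KO libraries were below both WT libraries, and the change was -0.12 ± 0.03 (adjusted p = 0.0273), or -8.06% in RPKM + 1. It lost its call in 7 of 10 alternative settings, as after rescaling by the median ratio (-0.10, adjusted p = 0.0606). Of the 43 members, 39 had a negative change, against 7405 of the 12146 genes tested. The members' median was -0.07 against -0.02 over all genes. By limma 14 members were at an unadjusted p under 0.05, against 2580 of the 12146 genes. For 30 members both KO libraries were below both WT libraries, against 33.0% of all genes tested. Gins1 had the lowest value at -0.17 ± 0.05 and was not called (adjusted p = 0.10). The authors' deposited table has 0 members at a q-value under 0.05 here. Suprabasal markers summed to 3592 to 3614 RPKM in WT basal and 5459 to 5495 in KO basal libraries and all 6 rose. Erythroid markers summed to 68.4 to 75.6 RPKM in WT and 31.8 to 32.3 in KO basal libraries, with all 3 tested lower. Hair follicle markers summed to 116 to 118 and 103 to 104, with 4 of 8 lower, and fibroblast markers to 135 to 138 and 121 to 127, with 2 of 4 tested lower. Melanocyte markers summed to 91.4 in both WT libraries and 102 to 105 in KO, with 3 of 5 higher. T cell markers summed to 4.87 to 5.14 and 2.12, with Cd3g, the 1 tested, lower. The part of these cells in the members' values was not tested.

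In suprabasal cells 17 of the 43 members (against 21.6% of all genes tested) were higher in KO and 0 were lower (against 15.7%). On the RPKM + 1 scale, which understates changes at low RPKM, the 17 differed by 5.25% to 15.9%. The members' median log2 change was 0.08 against 0.01 over all genes. Both KO libraries were above both WT libraries for 26 members, against 37.4% of all genes. At an unadjusted p under 0.05 limma had 22 of the 43 members in either direction, against 5736 of the 12146 genes tested. Leaving out any 1 of the 4 suprabasal libraries leaves a lone library in a group and lowered the count of higher members. The share of all genes called in those fits is not given, so no excess over it can be read. Over all alternative settings the members' median log2 change ran from 0.05 to 0.09. Quantile normalization turned the all-gene split to 15.9% higher and 19.3% lower, and 12 members were then called higher and 2, E2f8 and Tyms, lower. The authors' deposited table has 11 members higher and 1 lower at a q-value under 0.05, and its share over all genes was not worked out here. Among the 16 mitosis genes 1 rose, Cdk1, and the median was -0.02.

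The 17 called members came from 7 of the 9 roles. Of the clamp and loaders 6 of 9 rose (Pcna, Rfc2, Rfc3, Rfc4, Dscc1, Fen1), of single strand and repair 3 of 4 (Tipin, Rpa2, Exo1), of helicase activation 3 of 6 (Cdc45, Gins2, Gins4), of the ring 2 of 6 (Mcm2, Mcm5), of licensing 1 of 4 (Orc6), of nucleotide supply 1 of 3 (Rrm2) and of chromatin assembly 1 of 3 (Chaf1b). None of the 6 polymerase and primase genes and neither E2F factor was called; 1 gene of each of these groups was at an unadjusted p under 0.05. Whether roles differ in this was not tested. Rfc4 measured 6.9 and 6.7 RPKM in the WT suprabasal libraries against 7.92 and 8.16 in KO (0.21 ± 0.04, adjusted p = 0.00545), the largest rise of the members on the log2(RPKM + 1) scale. Orc6 measured 7.49 and 7.65 RPKM in WT against 8.66 and 8.83 in KO (0.19 ± 0.03, adjusted p = 0.00214). Both genes had KO libraries above both WT libraries. Fen1 measured 12.5 and 12.3 RPKM in WT against 14.3 and 13.6 in KO (0.16 ± 0.03, adjusted p = 0.00457). Rrm2 measured 18.6 and 18.9 RPKM in WT against 20.3 and 21 in KO (0.13 ± 0.03, adjusted p = 0.00755). These 4 genes were the ones called in all 10 alternative settings, and their groups did not overlap. Mcm5 measured 21.5 and 21 RPKM in WT against 24.1 and 22.8 in KO (0.14 ± 0.03, adjusted p = 0.00814). Pcna measured 78.3 and 78.1 RPKM in WT against 84.1 and 83.5 in KO (0.10 ± 0.02, adjusted p = 0.0074). Pcna's call depended on the scaling, with a change of 0.00 after quantile normalization. By the authors' ratio of KO to WT, Exo1 rose more than Rfc4, at 1.23 against 1.18.

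A few members lay on the other side of 0 in suprabasal cells, none of them called. Tyms measured 13.4 and 13 RPKM in WT against 12.1 and 12.2 in KO (-0.11 ± 0.04, adjusted p = 0.0709). E2f8 measured 7.95 and 7.93 RPKM in WT against 7.35 and 7.4 in KO (-0.09 ± 0.03, adjusted p = 0.0536). For these 2 genes both KO libraries were below both WT libraries. Prim2 measured 6.77 and 6.86 RPKM in WT against 6.49 and 6.3 in KO (-0.08 ± 0.04, adjusted p = 0.139), again with both KO libraries below both WT libraries. The remaining negative values were -0.04 (Pola1), -0.01 (Pole), -0.01 (Lig1) and -0.01 (Slbp), all within 1 SE of 0. Marker RNA of other cells moved with genotype in the suprabasal libraries. Basal markers summed to 7103 to 7159 RPKM in WT and 6588 to 6649 in KO, and suprabasal markers to 45488 to 45761 and 52657 to 53041. Melanocyte markers summed to 59.7 in both WT libraries and 91.7 to 92.6 in KO, Langerhans and myeloid markers to 114 and 166 to 167, and fibroblast markers to 44.6 to 45.9 and 60.7 to 62.5. All 5 melanocyte markers, 4 of 6 Langerhans and myeloid markers and 3 of 4 tested fibroblast markers rose. Hair follicle markers summed to 60.8 to 61 in WT and 57.9 to 58 in KO, with Krt71 (-2.75), Krt27 (-2.64) and Krt25 (-1.72) lower and Lhx2 (0.50), Hoxc13 (0.42), Shh (0.30) and Sox9 (0.21) higher. The part of these cells in the members' changes was not tested.

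**Figure D5:**
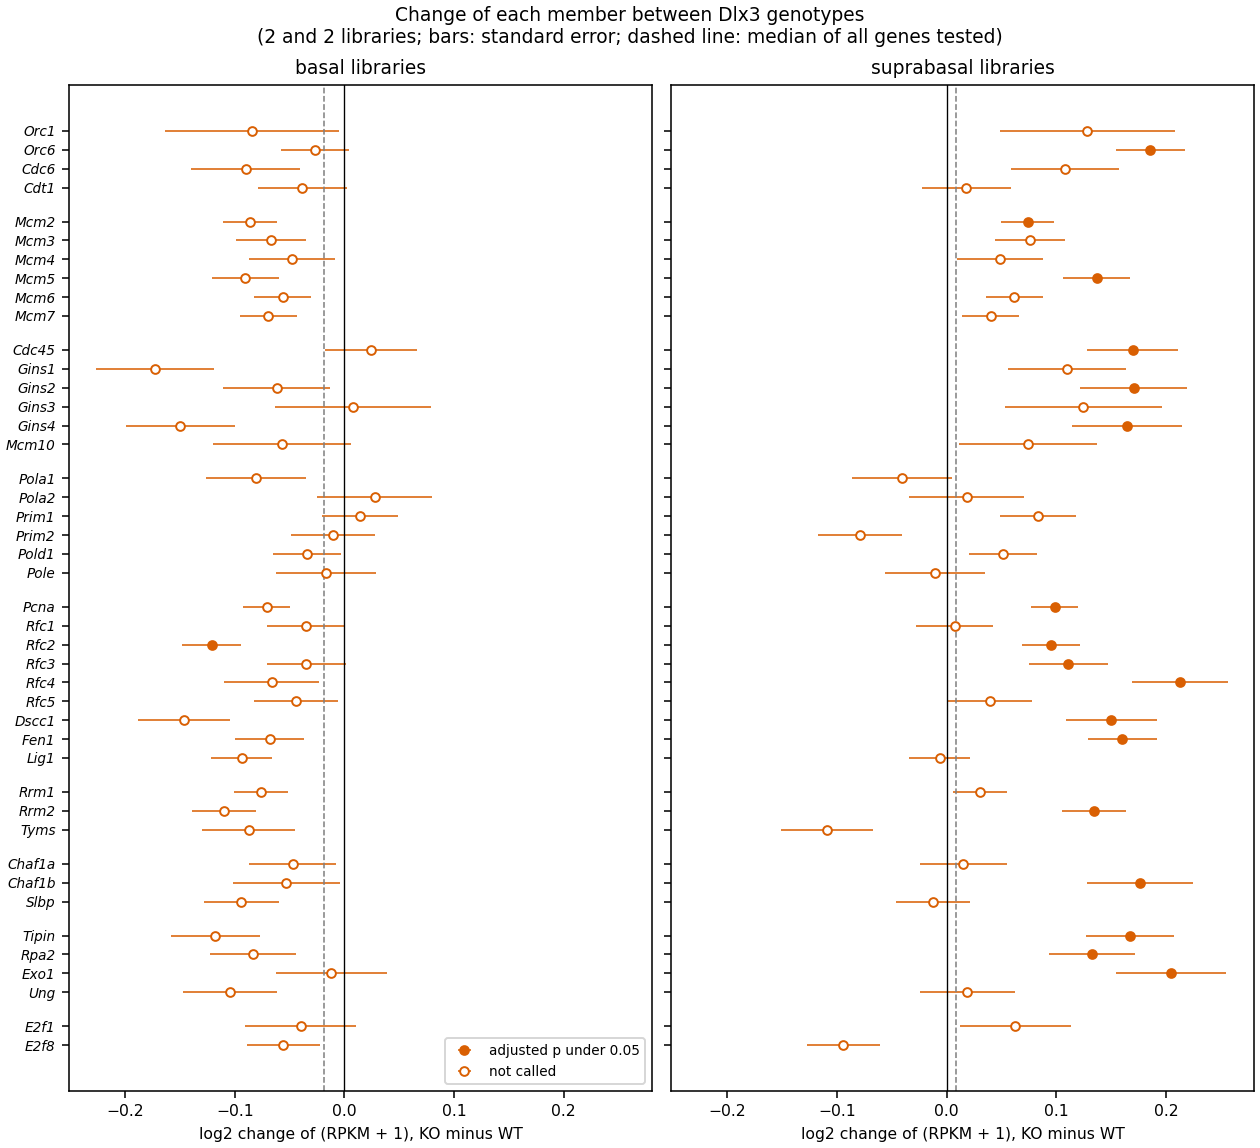
KO minus WT log2 change of each member in basal cells (left) and suprabasal cells (right), with SE bars and filled points for called genes. Most basal points lie just below 0 with Rfc2 called at -0.12, and most suprabasal points lie above 0, up to 0.21 for Rfc4.

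The effect of genotype differed between the fractions for 16 of the 43 members, all with a KO to WT difference higher in suprabasal than in basal cells, against 14.4% of all genes tested. Of the 16, 14 were also called higher in KO suprabasal cells themselves, while Mcm6 and Gins1 were called in neither fraction (Gins1 -0.17 in basal and 0.11 in suprabasal cells). In this test the log2 KO to WT difference in basal cells is subtracted from that in suprabasal cells, with a median of 0.13 over the members and 0.03 over all genes. The 16 were Orc6, Mcm2, Mcm5, Mcm6, Gins1, Gins2, Gins4, Pcna, Rfc2, Rfc4, Dscc1, Fen1, Rrm2, Chaf1b, Tipin and Rpa2, with sizes of 8.5% to 24.3% in RPKM + 1. By limma 23 of the 43 members were at an unadjusted p under 0.05 in either direction, against 4460 of the 12146 genes tested. The count was 14 after rescaling by the median ratio, against 13.5% of all genes, and 12 after quantile normalization, against 8.72%. It was 9 without the filter on low values, a fit whose share over all genes is not given. Gins4 had the largest difference on the log2(RPKM + 1) scale: it was at 20.9 and 23.2 RPKM in WT basal, 19.9 and 19.6 in KO basal, 10.4 and 9.76 in WT suprabasal and 11.2 and 11.7 in KO suprabasal libraries (0.31 ± 0.07, adjusted p = 0.0147). Dscc1 was at 7.04 and 7.29 RPKM in WT basal, 6.45 and 6.3 in KO basal, 2.67 and 2.74 in WT suprabasal and 3.17 and 3.06 in KO suprabasal libraries (0.30 ± 0.06, adjusted p = 0.00894). In both genes KO was below WT in basal cells and above it in suprabasal cells. The authors' KO to WT ratios in basal and suprabasal cells were 0.898 and 1.13 for Gins4. For Dscc1 they were 0.891 and 1.14, so by ratio Dscc1 differed more. Orc6, Mcm5, Rfc2, Dscc1, Fen1, Rrm2 and Tipin were called in all 14 alternative settings, and Mcm6 (0.12 ± 0.04, adjusted p = 0.0497) in none of them. These comparisons share the same 8 libraries, so the genes they have in common are no separate evidence.

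A further 58 genes of the same pathway, which are no members, give the setting. They include other origin, polymerase and fork subunits, nucleotide enzymes, E2F and retinoblastoma family genes and S phase cyclins. In Fvb/N 52 of the 58 fell and 0 rose (52 at an unadjusted p under 0.05 by limma, median -1.61), in WT 55 fell and 1 rose (median -0.88), and in KO 54 fell and 1 rose (median -0.86). Over all genes tested 60.6%, 70.4% and 69.7% fell in these comparisons. The gene that rose in the Dlx3 table was E2f2, an activator E2F, at 0.70 in WT and 0.59 in KO, and its Fvb/N change of 0.58 was not called (adjusted p = 0.101). Rb1, the retinoblastoma gene, and Pold4, a small polymerase delta subunit, were not called in any of these 3 comparisons. Samhd1, which breaks down nucleotides, changed by -0.38 in WT, while its KO value of 0.03 was not called. Between genotypes 1 of the 58 fell in basal cells, Ccna2 (-0.17), against 2.98% of all genes. In suprabasal cells 5 rose (Pold2, Rnaseh2a, Rnaseh2c, Dut and Samhd1) and 5 fell (Orc3, Topbp1, Tfdp1, Rbl2 and Cdk2), with Samhd1 the highest at 0.29. These counts of 5 in 58 are below the 21.6% higher and 15.7% lower over all genes. The fraction difference between genotypes was called for 9 of the 58, all positive, a share close to the 14.4% over all genes, with Samhd1 the highest (0.40, adjusted p = 0.0028). All 16 mitosis genes fell between fractions in Fvb/N (median -3.04), WT (-1.29) and KO (-1.16). In KO basal cells 5 of them were lower (Ccnb1, Ccnb2, Cdc20, Plk1 and Kif11), where of the replication members Rfc2 alone was called. For 4 of these 16 mitosis genes the fraction difference between genotypes was called, all positive, against 14.4% of all genes. Its median over the 16 was 0.11, against 0.13 over the replication members.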

How the data were processed

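RNA of 16 libraries was sequenced, and the authors deposited RPKM tables: reads were mapped to mm10 with TopHat and RPKM calculated in Partek, per the file headers. The submitters' processing notes name TopHat2 2.1.1 and bcl2fastq 2.20.0.422. The authors also deposited a ratio and a q-value for each gene from an analysis of variance, per the file headers; these are printed only as theirs. The gene annotation, the strand setting, the handling of multiply mapped reads and read totals are not given in the sources used here.

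Values were tested as log2(RPKM + 1) with limma 3.58.1 (moderated test with intensity trend, R 4.3.3), within each table and over its groups, with Benjamini-Hochberg adjustment over all genes at 1 RPKM or more in at least 4 Fvb/N or 2 Dlx3 libraries, and calls at an adjusted p under 0.05. The genotype by fraction difference is an interaction term of the same fit. The code was tested on simulated data. Only 62.2% to 68.2% of low values lay on whole steps of 1 read, so reads were not recovered and no count test was run; depth is an estimate and no counting interval is given. Summaries used Python 3.11.15.

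The 43 members, the pathway, mitosis and marker lists and the alternatives were chosen with earlier results of these data known. Values in every library were given for the 2 highest members of each role in Fvb/N basal cells, for Mcm2 to Mcm7 and for members that were not called or went against the majority; in the genotype comparisons, where most members were not called, examples stand for the rest.

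Same-numbered Fvb/N basal and suprabasal libraries deviated together over genes (r = 0.51, 0.57, 0.56 and 0.12), which pairs them by the rule used, although different numbers of 1 run code, as the labels give it, reached 0.01 to 0.59. The main Fvb/N standard errors and p-values come from the fit without pairs, and the pairing entered only as the replicate block among the alternatives. In the Dlx3 table the r of same-numbered libraries was -0.05 to 0.06 and the numbers were not taken as pairs. Alternatives were another scaling (median ratio or quantile), a pseudocount of 0.1, no filter, no trend, the replicate number as a block, the labels' run code and each library left out. The deposited sample sheets give the Fvb/N run codes by fraction and not by replicate number as the labels do, per the file headers; a fit with the sheets' code as a term is not possible, since it equals the fraction.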

Additional observations from a re-analysis of the deposited data

Results flagged for a closer look

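In groups of 4 libraries, the highest or lowest value of 8 of 86 groups of member values stood apart from the other 3 by Dixon's test. Chance flags about 1 in 20 separate groups. The members share their libraries, and 7 of the 8 flags were in 1 library, so the count cannot be set against that rate. The flagged values in Fvb/N suprabasal library 3 were Orc1 at 0.936 RPKM, Mcm10 at 1.14, Pola1 at 2.67, Pold1 at 3.92, Pole at 2.76, Rfc4 at 3.74 and Rfc5 at 5.31, each the highest of its group. In Fvb/N basal library 3 Chaf1a was at 23.2 RPKM, above the other basal libraries.

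The KO to WT difference differed between suprabasal and basal cells by the interaction test (limma, adjusted p under 0.05) for 16 members, on the log2 scale as suprabasal minus basal. The values were 0.21 for Orc6, 0.16 for Mcm2, 0.23 for Mcm5, 0.12 for Mcm6, 0.28 for Gins1, 0.23 for Gins2, 0.31 for Gins4 and 0.17 for Pcna. They were 0.22 for Rfc2, 0.28 for Rfc4, 0.30 for Dscc1, 0.23 for Fen1, 0.24 for Rrm2, 0.23 for Chaf1b, 0.29 for Tipin and 0.22 for Rpa2.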

How the results depend on the processing

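The counts of members lower in suprabasal cells stayed at 41 to 43 in Fvb/N and at 43 in WT and KO under every alternative run, while the size of the change moved with the scale: the members' median ran from -2.95 to -1.57 in Fvb/N, -1.22 to -0.70 in WT and -1.07 to -0.55 in KO. Tyms in Fvb/N turned positive under rescaling by the median ratio (0.62, then the 1 member called higher), quantile normalization (0.53) and in the labels' later run code alone (0.37), and ran from -0.18 to 0.17 when single libraries were left out. In KO against WT basal cells the count of lower members was 0 after rescaling, 0 after quantile normalization, 2 with the replicate block and 0 to 1 with single libraries left out (0 without WT library 2 or KO library 1). In suprabasal cells 2 members were lower under quantile normalization, 1 with a pseudocount of 0.1 and 1 without a filter, and 9 to 11 were higher with single libraries left out. The interaction called 9 members without a filter and 10 to 14 with single libraries left out; the lone library of a group was then assumed to vary like the other groups. With the replicate block 42 members were lower in Fvb/N, 43 in WT and 43 in KO, 17 were higher in KO suprabasal cells and 15 had an interaction (without Mcm6), and no other of the named calls changed. The cause of these moves was not tested. The genotype comparisons rest on groups of 2 libraries, which limits their precision. Libraries of a group differed by a median of 1.7% to 3.54% over the members in the Dlx3 table, against 6.4% to 96.7% in Fvb/N. Whether the Dlx3 replicates are technical is not known, so their p-values may not measure variation between animals.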
